A study of Drosophila melanogaster with 2 samples.

Results

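The odorant receptor (Or) and gustatory receptor (Gr) genes of Drosophila melanogaster were examined for binding of CG10366 in whole embryos collected 0 to 24 h after laying. Members were the protein-coding genes of the annotation named Or or Gr with a cytological number and letter, and the co-receptor gene Orco. They came to 120 of 13986 protein-coding genes, 60 odorant receptor genes (Orco included) and 60 gustatory receptor genes. Flies of the strain CG10366-GFP carried an insertion that expresses CG10366 joined to eGFP, and chromatin was precipitated with an antibody against GFP. There was 1 group of 2 libraries, labelled as biological replicates 1 and 2, and no other genotype or stage, so the values compare genes and not samples. The labels name whole organisms and no cell type, and do not say whether the replicates came from separate collections.

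Odorant receptors are membrane proteins of olfactory neurons that form ligand-gated ion channels together with Orco, and each neuron as a rule uses 1 or a few of them. Gustatory receptors are relatives of the same superfamily that serve in taste neurons for sugars and bitter compounds, and a pair of them senses carbon dioxide. In the embryo the larval nose and taste organs are built late, and their sensory neurons are a small share of the cells. A summit present in few cells and a weak summit in many cells cannot be told apart in chromatin from whole embryos.

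No receptor gene held a passing CG10366 summit. A passing summit is the highest point of a peak in the authors' thresholded list. That list holds peaks with an irreproducible discovery rate (IDR) of 0.01 or less. The IDR estimates how often such peaks fail to recur between the peak sets that were compared. For the list of a replicate alone, these sets cannot be the replicates. A peak that passes in the series-wide list need not pass in each replicate's own list. In the series-wide list made from both libraries, 0 of 120 receptor genes had a passing summit within 500 bp of a transcript start. A count of 0 allows a share of up to 2.5%. Among all protein-coding genes the share was 19.4%. The count was 0 of 60 for the odorant receptors and 0 of 60 for the gustatory receptors, which allows up to 5% in each. In the gene spans the count was again 0 of 120, against 12.4% of all protein-coding genes. These limits, and the 95% Wilson intervals given below, cover counting error only, and read depth is unknown.

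The other thresholded lists gave the same count. In the conservative list 0 of 120 receptor genes had a passing summit at a start and 0 in the span, against 19.2% and 12.2% of all protein-coding genes. In the list of replicate 1 alone both counts were 0, against 18.4% and 11.8%. In the list of replicate 2 alone both were 0, against 14.8% and 9.57%. The replicates therefore did not differ in this count.

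Weaker candidates were also few at receptor starts. The ranked lists hold candidate peaks, whether or not they pass, but no list holds all of them. The series-wide one has 34018 peaks, and the one behind the conservative list has 66223. A Gr47b candidate of 55.3, 7 bp from the start, is in the latter and not in the former. In the series-wide ranked list 11 of 120 receptor genes had a candidate summit within 500 bp of a start (9.17%, 5.2 to 15.7%), where 42.9% of all protein-coding genes had one. In the spans it was 18 of 120 (15%, 9.7 to 22.5%), against 42.4%. Odorant receptors had 5 of 60 at a start and gustatory receptors 6 of 60. Of all protein-coding genes with a candidate at a start, 45.3% had a passing summit there. None of the 11 receptor genes with a candidate there did.

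**Figure D1:**
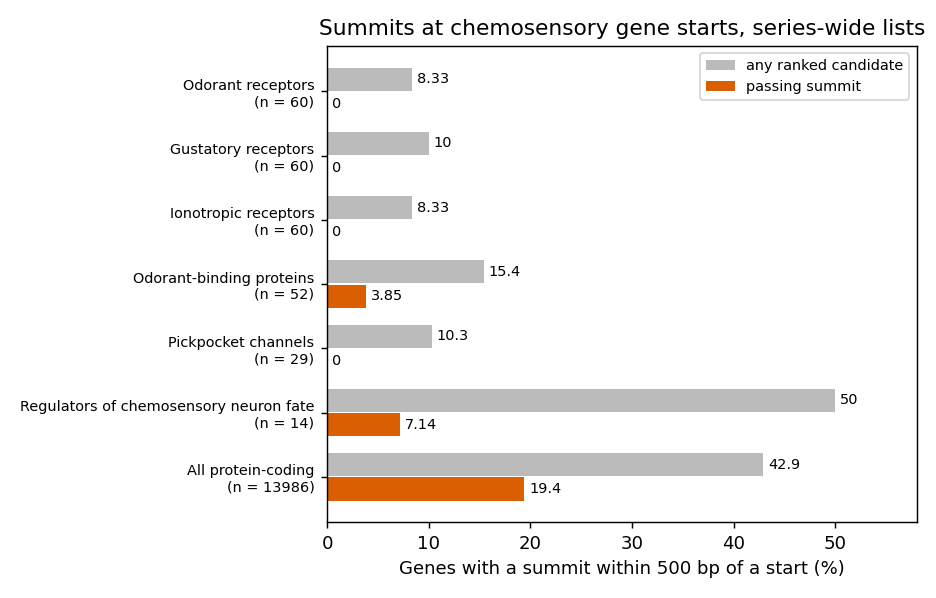
Share of genes (horizontal axis, %) with any ranked candidate (grey) or a passing summit (orange) within 500 bp of a start in the series-wide lists, for 6 chemosensory gene lists and for all protein-coding genes. Both receptor lists stand at 0 for passing summits, against 19.4% of all protein-coding genes, and at 8.33% and 10% for candidates, against 42.9%.

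The replicates' own ranked lists, which differ in length, shared few receptor genes at the starts. Replicate 1, with 62792 ranked peaks, had a candidate at the start of 36 of 120 receptor genes (30%, against 50.4% of all protein-coding genes) and in the span of 56 (46.7%, against 52.4%). Replicate 2, with 37922, had one at the start of 18 (15%, against 51.6%) and in the span of 28 (23.3%, against 55.9%). At the starts, 5 receptor genes had a candidate in both replicates, 31 in replicate 1 alone, 13 in replicate 2 alone and 71 in neither. Those in both were Gr22b, Gr47b, Gr92a, Or56a and Orco, which is 13.9% of the genes of replicate 1 and 27.8% of those of replicate 2. Over all protein-coding genes the shared ones were 73.3% and 71.5%. A gene counted in both need not have the same summit in both. At Or56a the summits were 177 and 404 bp upstream of the start in replicate 1 and 393 bp past it in replicate 2. At Orco, too, the replicates had summits at different places. With the spans included, 19 receptor genes had a candidate in both replicates. They were 31.7% of the 60 in replicate 1 and 57.6% of the 33 in replicate 2, against 81.6% and 78.6%. The reference is unlike, since all protein-coding genes include those with passing summits and had candidates more often. No such share is given for genes with failing candidates only. The ranked list that goes with the conservative list had candidates at 32 starts (26.7%, against 55.2%) and in 45 spans (37.5%, against 58.5%).

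Passing summits were far from most receptor genes. The distance from a receptor gene's start to the nearest one ranged from 663 to 202457 bp with a median of 17406 bp. Over protein-coding genes on arms with a peak the median was 6716 bp. The median was 29127 bp for odorant receptors and 11324 bp for gustatory receptors. Within 5000 bp lay a passing summit for 23 of 120 receptor genes (19.2%), 7 odorant and 16 gustatory, against 43.1% of all. The cluster of Gr36a, Gr36b and Gr36c was the farthest away, at 198737 to 202457 bp, followed by Or42a at 181537 bp and its neighbour Or42b at 175992 bp. Genes of a cluster share their surroundings and are not independent: 50 of the 120 stood in 18 clusters with neighbouring starts at most 10 kb apart.

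**Figure D2:**
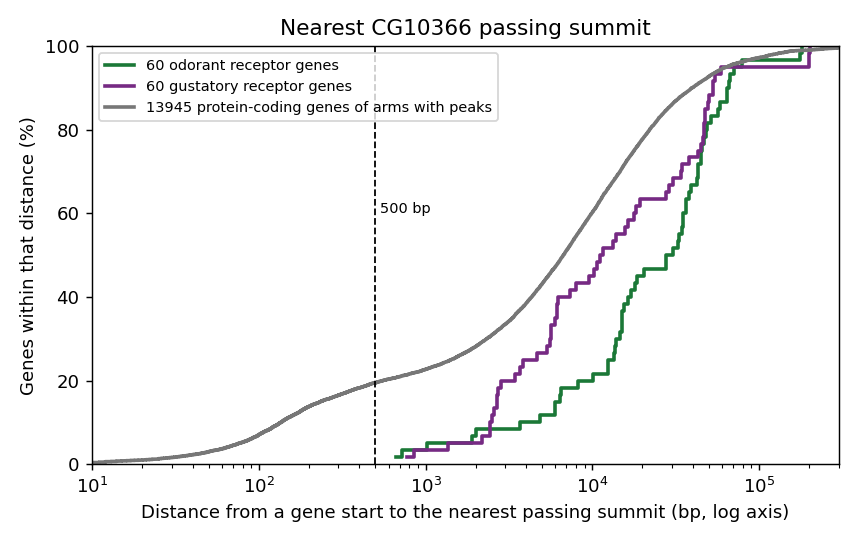
Cumulative share of genes (vertical axis, %) by distance from a start to the nearest passing summit (horizontal axis, bp, log scale), for odorant receptors (green), gustatory receptors (purple) and protein-coding genes (grey). Both receptor curves begin beyond the dashed line at 500 bp, where the grey curve already stands near 19.4%, and the odorant receptors lie farthest to the right over most distances.

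The density of passing summits was lower around receptor genes in every ring out to 20000 bp, and the gap was widest at the start itself. Within 500 bp of the 5′ ends of receptor genes there were 0 passing summits per Mb and 75 candidates per Mb, against 186 and 495 for all protein-coding genes. From 500 to 1000 bp the passing density was 33.3 per Mb, against 49.6, and from 1000 to 2000 bp it was 16.7, against 47.6. Each of these receptor densities rests on 4 summits, too few to place them below all genes. From 2000 to 5000 bp the passing density was 33.3 (24 summits), against 51.3, and from 5000 to 10000 bp 34.2 (41 summits), against 52.3. From 10000 to 20000 bp it was 42.1 per Mb (101 summits), against 51.8, and the candidate densities were 268 and 290. No interval was computed for a ring. A summit counts once for each gene it is near. The density at all protein-coding genes was highest in the innermost ring, and at receptor genes it was lowest there.

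**Figure D3:**
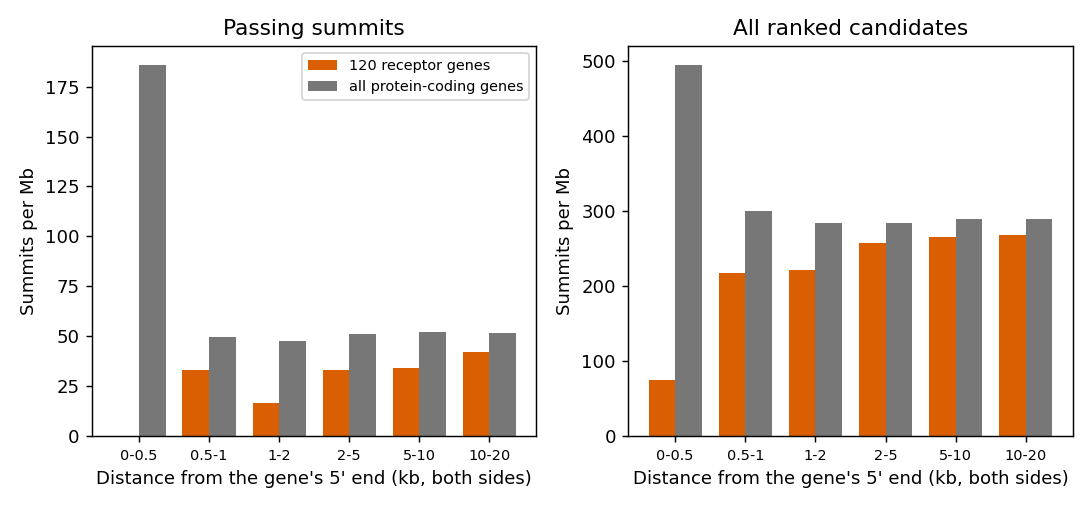
Passing summits (left) and all ranked candidates (right) per Mb (vertical axes) in rings around the 5′ end (horizontal axis, kb, both sides) of the 120 receptor genes (orange) and of all protein-coding genes (grey). The innermost ring holds 0 and 75 per Mb at receptor genes, against 186 and 495 for all, while the outermost ring holds 42.1 and 268, against 51.8 and 290.

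The 5 receptor genes nearest to a passing summit were Or88a, Orco, Gr32a, Gr64a and Or9a, and at 4 of them another gene's start was closer to it. The exception was Orco, the gene of the co-receptor that most odorant receptors need to reach the cilia. Orco spans 5407183 to 5412406 on the minus strand of 3R (dm6), and a passing peak lay upstream of it at 5412967 to 5413296, with its summit 726 bp from the Orco start. No other annotated start, coding or non-coding, was within 500 bp of that summit. Its signal, the authors' own value per peak, was 88.5 (rank 4307 in a list of 34018), where passing peaks had a median of 142. The peak was among the passing ones of replicate 1 (signal 53.4), but in replicate 2 it was a candidate that failed (34.8, −log10 IDR 0.57).

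The peak near Gr32a, a bitter receptor gene also used for male pheromone, lay 769 bp upstream of its start and 184 bp from that of Idua (signal 98.9), and it too passed in replicate 1 (56.4) and failed in replicate 2 (35.6). The peak near Or88a, a receptor for fly odours, lay 663 bp upstream and 461 bp from the start of CG12402. That one passed in both replicates, with signals of 189 and 155, and had 346 in the series-wide list. The peak near the sugar receptor gene Gr64a, the first of the Gr64 cluster, lay 852 bp upstream and 94 bp from the start of CG11594 (87.4). It passed in replicate 2 alone (60.7), had 31.2 in replicate 1, and was not in the conservative list. The peak 1025 bp upstream of Or9a lay 35 bp from the start of Neb-cGP (108) and passed in both replicates (49.1 and 56.1). Of the 3 next nearest peaks, all within 2000 bp of a receptor start and looked at after their values were seen, 2 had no other coding start nearer than that of the receptor gene. One, at the bitter receptor gene Gr89a, lay 1362 bp downstream of the Gr89a start with a signal of 360 and passed in both replicates (219 and 135). The other lay 1998 bp upstream of Or45b with a signal of 92.6, passed in replicate 1 (53.9) and failed in replicate 2 (34.8, −log10 IDR 0.91).

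The DNA at these neighbouring passing summits and at failing candidates of receptor genes is shown for comparison, as 101 bases around the summit on the plus strand of dm6 from the RefSeq copy of the assembly. Capitals mark runs of at least 6 bases that are all A or T. Windows over an annotated UTR were not taken, and none came from the arm that holds Or43a. That arm also holds the failing candidates of Or49a, Or47b, Gr43a, Or42a, Or45a, Or46a and Gr57a, and the passing peak near Or45b.
Orco upstream, passing, chr3R:5413082-5413182: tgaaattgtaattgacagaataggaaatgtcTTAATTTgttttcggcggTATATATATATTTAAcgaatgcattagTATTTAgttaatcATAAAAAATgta
Gr32a and Idua, passing, chr2L:11113195-11113295: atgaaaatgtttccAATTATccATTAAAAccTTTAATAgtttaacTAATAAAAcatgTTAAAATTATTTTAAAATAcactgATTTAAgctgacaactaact
Or88a and CG12402, passing, chr3R:14108732-14108832: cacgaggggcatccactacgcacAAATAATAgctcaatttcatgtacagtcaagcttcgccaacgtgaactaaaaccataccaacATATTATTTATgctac
Gr89a downstream, passing, chr3R:16497547-16497647: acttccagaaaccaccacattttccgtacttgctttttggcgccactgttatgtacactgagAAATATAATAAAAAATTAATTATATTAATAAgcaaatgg
Or92a coding exon, failing, chr3R:20505340-20505440: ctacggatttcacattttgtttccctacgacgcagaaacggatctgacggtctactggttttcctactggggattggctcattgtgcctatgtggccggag
Gr33a coding exon, failing, chr2L:12138964-12139064: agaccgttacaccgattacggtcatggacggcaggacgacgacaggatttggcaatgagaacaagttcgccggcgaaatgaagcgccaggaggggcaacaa
Orco intron, failing, chr3R:5410764-5410864: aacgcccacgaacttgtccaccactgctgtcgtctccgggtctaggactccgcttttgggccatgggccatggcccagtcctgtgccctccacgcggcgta
Or83c upstream, failing, chr3R:6078244-6078344: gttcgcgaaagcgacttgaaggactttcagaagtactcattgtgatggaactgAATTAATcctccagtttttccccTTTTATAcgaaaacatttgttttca

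Of these 8 windows, picked to show both kinds and not as a sample, 3 of the 4 passing ones were richer in A and T than every failing one shown. The Orco upstream window had a GC content of 23.8% and 4 marked runs, and the Gr32a window 20.8% and 6. The Gr89a window had 31.7% and 1 run of 31 bases, and the Or88a window 40.6%, above the 37.6% of the failing Or83c window. In contrast, the failing windows in coding exons of Or92a and Gr33a had 50.5% and 55.4% with no marked run, and the Orco intron window 64.4%. The Or83c window held 2 runs. Over the 27 distinct candidate summits of receptor genes the median GC content was 49.5% (quartiles 45 and 52.5%). Over all failing summits the median was 46.5% and over all passing summits 32.7%.

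Within the series-wide ranked list, the carbon dioxide receptor genes had the highest signals of any receptor gene. Gr21a and Gr63a encode the subunits that together form the carbon dioxide receptor. Their lead was slight, since Or43a had 53.5, and the order was another in other lists. In the ranked list behind the conservative one Gr47b stood highest with 55.3, and in replicate 2 Or43a with 37.3. The Gr21a candidate, 222 bp upstream of an inner start and inside the UTR of a longer transcript, had a signal of 54.6 (rank 9480) with an IDR of 0.482. In replicate 1 it had 40.6, and replicate 2 had no candidate within 100 bp of it. A second Gr21a candidate, 2 bp from that start, had 12.9. The Gr63a candidate, 276 bp upstream of its start, had 53.7 with an IDR of 0.536. Replicate 2 listed it with 34.1 and replicate 1 had no candidate within 100 bp. The start of Lamtor4 was also within 500 bp of the Gr63a candidate. Each of these genes thus had its candidate from 1 replicate only.

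Other taste receptor genes had weaker candidates in the series-wide list. Of 9 sugar receptor genes, 2 had a candidate at a start (22.2%). The share was 9.17% over the receptor genes and 42.9% over all protein-coding genes, and 9 genes are too few to place. Gr61a had one 396 bp upstream, inside JMJD5, whose start was also within 500 bp (32.9). The inner cluster genes Gr64b and Gr64c shared a pair of intronic candidates of 27.9 and 17.3, at 496 and 284 bp from the Gr64c start. Gr43a, which encodes a fructose receptor, held a coding-exon candidate of 46.2 in its span, 1512 bp from its start. The trehalose receptor gene Gr5a, and Gr64a and Gr64f, had no series-wide candidate at a start or in the span, and their nearest passing summits were 2563, 852 and 4640 bp away. Of the 5 receptor genes used in most bitter neurons, none had a candidate at a start, which allows a share of up to 60%. In Gr33a a coding-exon candidate stood 1006 bp from the start (47.9), with 25.9 in replicate 1 and 30.4 in replicate 2, so it was one of the few that both replicates listed. Gr66a and Gr32a had none at a start or in the span, nor had Gr28a and Gr28b, whose nearest passing summits lay 11121 and 13386 bp away. Among gustatory receptors of other classes, Gr98b had a candidate 165 bp inside its coding sequence (39.9) that neither replicate listed within 100 bp. Gr57a had one at 490 bp (31.3). Spans held candidates at Gr68a (28.7 and 3.21) and Gr77a (31.4), both nested in introns of other genes.

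Of 11 odorant receptor genes with a series-wide candidate, 6 had their strongest one in a coding exon, among them the 3 highest. Or43a had the lowest IDR of any receptor gene in the series-wide list, 0.163, at a candidate 283 bp past its start with a signal of 53.5. Replicate 2 listed it with 37.3 (rank 5694), and replicate 1 had no candidate within 100 bp. Or92a, which encodes a diacetyl receptor, followed with an IDR of 0.198 at 602 bp (50), and here both replicates had the summit, with 27.5 and 26.5. Or49a, the gene of a receptor for wasp odour, had 49.9 at 767 bp, with 24.9 and 20.8 in the replicates. Or47b, a gene for a pheromone receptor, had 40.2 in an intron, with 15.9 and 25.6. Or42a, whose product detects fruit esters in larva and adult, held 3 overlapping candidates, 2 of them at its start at 48 and 288 bp (20.3 and 32.4). Or83c had one 11 bp upstream of its start (29.8) and Or85a one 439 bp upstream, in Poxm (32.0). In Orco itself a candidate of 32.9 stood in an intron 345 bp upstream of an inner start and one of 40.6 in a UTR. Spans of Or45a (38.8), Or46a (34.5) and Or74a (32.1) also held one.

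The limit of 500 bp separated like values. Just inside it were the candidates of Gr64c at 496 bp (27.9) and Gr57a at 490 bp (31.3), and just outside it those of Or46a at 573 bp (34.5) and Or74a at 586 bp (32.1). Or22a and Or42b, for fruit esters, Or56a, for the mould odour geosmin, and Or67d, for the male pheromone cis-vaccenyl acetate, had no series-wide candidate at a start or in the span. Of 26 odorant receptor genes known from the larva, 2 had a candidate at a start and 5 in the span, a share of 7.69% at starts against 8.33% of all odorant receptors.

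In the series-wide list no receptor candidate reached the median signal of passing peaks (142). All of them failed, but signal alone does not decide that. Passing peaks went down to a signal of 2.01, with a lower quartile of 98.8. The 27 distinct summits had signals from 3.21 to 54.6 with a median of 32.9. Of them, 11 lay above the median of all failing candidates (38.5) and 16 below it. Gr21a, the highest, had 27.9% of ranked peaks above it. By IDR, 19 stood at the list's lowest −log10 IDR of 0.12, which 39.2% of all ranked peaks shared. A candidate within 100 bp was listed in both replicates for 4 of the 27 (14.8%), in replicate 1 alone for 13, in replicate 2 alone for 5 and in neither for 5. Of all failing series-wide candidates 32.6% were listed in both. The 4 were those of Gr33a, Or47b, Or49a and Or92a. Across all 4 ranked lists the highest −log10 IDR at a receptor gene was 1.16, at Gr47b and Gr33a in the list behind the conservative one, where 2 is needed to pass. No receptor gene therefore held a ranked peak that met the threshold and was then left out.

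**Figure D4:**
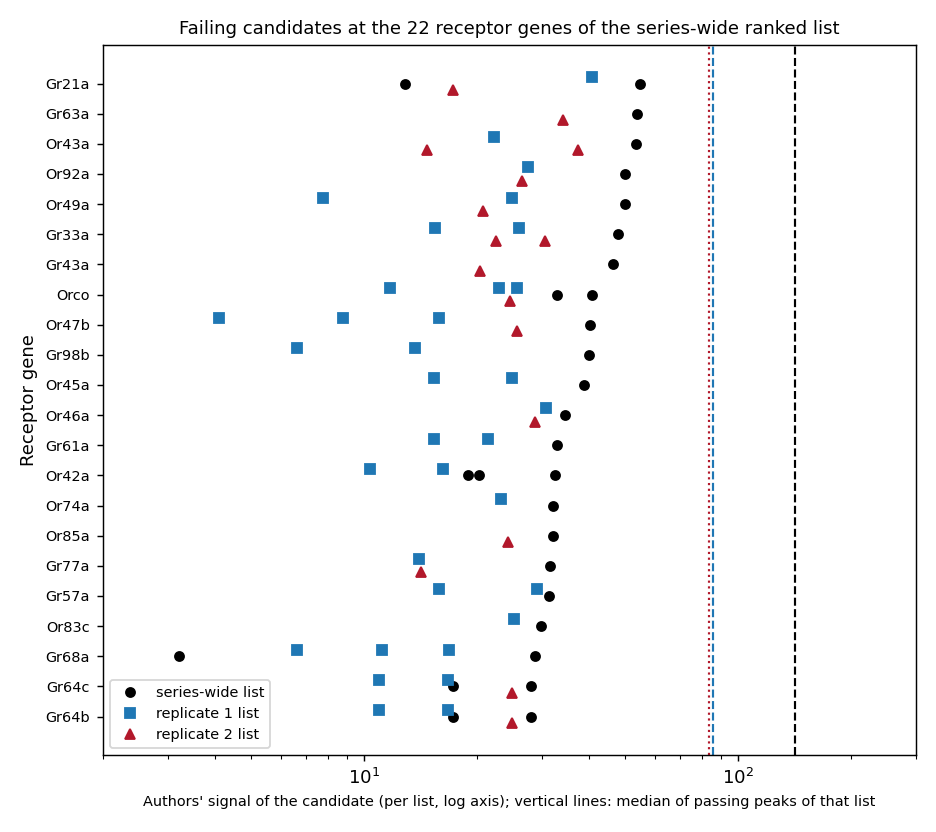
Authors' signal (horizontal axis, log scale) of every candidate at a start or in the span of the 22 receptor genes of the series-wide ranked list (vertical axis), in the series-wide list (black), replicate 1 (blue) and replicate 2 (red), with the median signal of passing peaks of each list as a line of its colour. Signals are comparable only within a list, and the highest black point, 54.6 at Gr21a, lies left of the black line at 142.

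Receptor genes differed from other genes in build and surroundings, and the part of these differences in the counts was not tested. Their spans were short, with a median of 1445 bp against 2166 bp, and 86 of 120 had a length from 1024 to 1717 bp, the second lowest of 5 equal classes of protein-coding genes. In that class 16.8% of all protein-coding genes had a passing summit at a start. A head-to-head partner within 1000 bp stood at 14 receptor genes (11.7%), 2 odorant and 12 gustatory, against 33.3% of all. Of all genes with such a partner 34% had a passing summit, and of those without 12.2%. Among the 1032 genes with 1 start, no such partner and a span within the receptors' quartiles of 1302 and 1782 bp, 84 had one (8.14%), and 0 of the 55 receptor genes among them did.

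Most of a receptor gene is coding sequence, where passing summits were rare in any gene. Coding bases made up 75.2% of the 205 kb of receptor spans, against 25.4% of all protein-coding spans. Of passing summits in spans of protein-coding genes, 1.5% were in coding exons, and of failing ones 26.5%. Of the 23 receptor candidates in spans, 15 were in coding exons (65.2%, 44.9 to 81.2%). In the 50.7 kb of non-coding receptor sequence a count of 0 allows up to 59.2 passing summits per Mb, and all protein-coding genes had 43.9 per Mb in theirs. A lower density than in other genes was thus not detectable inside the non-coding part of the spans at this length, unlike at the starts.

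Base composition upstream of receptor starts was close to that of other genes. The 300 bases from 250 before to 50 after the 5′ end had a median GC content of 39.7% in receptor genes (quartiles 35.2 and 43.8%) and 38% in all protein-coding genes. Genes with a passing summit had 37%. Their profile dipped to 32.4% in the bin from 150 to 100 bp upstream, where odorant receptors had 36.2%, gustatory receptors 38.4% and all genes 36%. In the same 300 bases, read on both strands, the DNA replication-related element TATCGATA was found at 1 of 120 receptor genes (0.833%), at 9.36% of all protein-coding genes and at 14.1% of those with a passing summit. The shorter BEAF-32 box CGATA, which lies within it, was found at 29.2%, 47.4% and 54.1%. The GAGA element GAGAG had 24.2%, 29.7% and 29.2%, the Zelda site CAGGTAG 0.833%, 1.64% and 1.22%, and the TATA box TATAAA 54.2%, 45.8% and 45.7%. Such a match is a description of the letters and not a site.

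**Figure D5:**
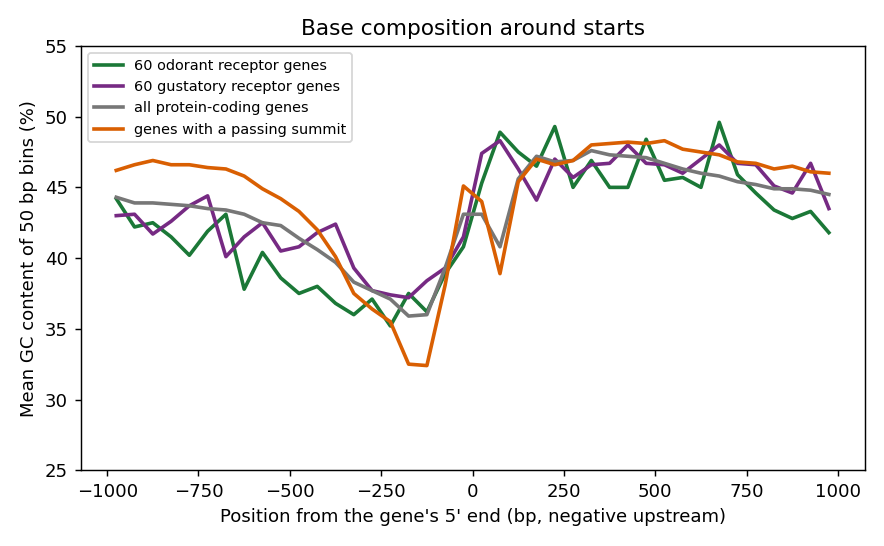
Mean GC content (vertical axis, %, from 25 to 55) in bins of 50 bp by position from the 5′ end (horizontal axis, bp) for odorant receptors (green), gustatory receptors (purple), all protein-coding genes (grey) and genes with a passing summit (orange). The orange line falls to 32.4% upstream of the start, and the receptor lines stay at 35.2% or above there.

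Nearly all receptor starts lay in sequence that occurs once in the assembly. In the 1000 bp around the 5′ end, at least 90% of runs of 31 bases occurred once in the assembly for 118 of 120 receptor genes, against 95.7% of all protein-coding genes. The exceptions were the near-identical copies Or19a and Or19b, with 15.9% each, and their count of 0 summits is uncertain for that reason.

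Of the other chemosensory gene lists, the receptor, channel and binding protein families had 0 to 2 genes with a passing summit each. Of 60 ionotropic receptor genes, the second large family of olfactory and taste receptors, 0 had one at a start and 5 had a candidate (8.33%). Of 29 pickpocket genes, which encode sodium channels that include taste and pheromone sensors, 0 had one and 3 had a candidate. Of 52 odorant-binding protein genes 2 had one (3.85%, 1.06 to 13%). They were Obp99b (signal 214, with 121 and 95.2 in the replicates) and Obp83g (96.9, in replicate 1 with 48.7 and not passing in replicate 2). The 14 regulators of chemosensory neuron fate are too few to place: 7 had a candidate at a start (50%) and 1 a passing summit (7.14%), with an interval of 1.27 to 31.5% that holds the share of all genes. That gene was Xbp1, a gene of the unfolded protein response (314, with 178 and 140). In another of them, Eip93F, a passing summit of 165 stood in the span. All these shares read against 19.4% and 42.9% over all protein-coding genes, and no test of a list was made.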

How the data were processed

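The deposited files were peak lists on dm6 made by the authors, per the file descriptions 1 thresholded and 1 ranked list for each replicate alone and 2 of each from both libraries. For the aligner and caller, neither name nor version is given in the sources used here. Control libraries, reads and signal tracks were not analysed here. The deposited signal is a value that the authors gave each peak, and it was compared only inside 1 list. The −log10 IDR was read from the authors' deposited ranked lists. Every thresholded peak was found in its ranked list by its coordinates. For the conservative list that match was how its ranked list was picked, so it is no check there. The series-wide ranked list held 5301 peaks at 2 or more, 148 more than the 5153 of the thresholded list. The deposited summit offset in bp was added to the peak's start, and coordinates are 1-based.

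Genes came from Ensembl release 115 on the same assembly. The RefSeq sequence read ATG at 99.8% of annotated start codons, a check that both use 1 build. A summit was placed at a gene when within 500 bp of any transcript start, or in the span. Depth is unknown. Work was done in Python 3.11.15 with pandas 2.3.3, and placement was checked on simulated data. Shares carry 95% Wilson intervals and a count of 0 a limit of 3 counts. No test compares samples, since there is 1 group, and no gene list was tested. The members, lists and settings were chosen with earlier results of these data known. Named genes were all members with a candidate at a start, 18 landmark receptors, and the 5 nearest to a passing summit. Members with a candidate only in the span, Gr89a, Or45b and the members of other lists were named after their values were seen. Alternatives were another reach, 1 start per gene, peak overlap of at least 1 bp, the conservative list, a stricter IDR, either replicate alone and either receptor family.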

Additional observations from a re-analysis of the deposited data

How the results depend on the processing

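The count of 0 of 120 receptor genes with a passing summit at a start was also 0 with any overlap of the peak and in the conservative list. Some settings are parts of the main one and could give only 0. These were a reach of 250 bp, only the 5′-most start, an IDR of 0.001 and each family. The 94 receptor genes that overlap no other coding gene are such a part too. Leaving out either replicate gave 0 to 0. With a reach of 1000 bp it was 4 of 120, namely Or88a, Orco, Gr32a and Gr64a, against 22.6% of all protein-coding genes. The count of 0 in the spans was 0 in every setting run for it, of which the stricter IDR, the families and the 94 genes could give only 0. The count of 11 with a candidate at a start was 4 at 250 bp, 29 at 1000 bp and 8 with only the 5′-most start. It was 17 with any overlap, 32 in the conservative list's ranked list, and 18 to 36 without a replicate. By family it was 5 and 6. At 1000 bp the share was 24.2%, against 53.3% of protein-coding genes on sequences with a ranked peak. Shares of all genes in the other ranked lists are given above. No such share is given for 250 bp, the 5′-most start or any overlap. The count of 18 with a candidate in the span was 19 with any overlap and 45 in the conservative list's ranked list. It was 28 to 56 without a replicate, and 9 in each family. Ranked lists differ in length, from 34018 to 66223 peaks, and the part of length in these counts was not tested. The shorter list of replicate 2 had a candidate at a start of 51.6% of all protein-coding genes. The longer one of replicate 1 had 50.4%. No paired analysis was possible because there is 1 group. Depth is unknown, so a weak summit could have been missed.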

Other observations

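Of the 120 receptor genes, 15 lay whole within an intron of another protein-coding gene (12.5%, against 9.43% of protein-coding genes on the arms), and 5.78% of all such nested genes had a passing summit at a start. Of the 14 host genes that are no receptor genes, 4 had a passing summit at a start and 3 in the span. Over all protein-coding genes the shares were 19.4% and 12.4%, and 14 genes are too few to place. None of the hosts' passing summits lay within 500 bp of the nested receptor's start or in its span. Poxm, a paired-domain gene around Or85a, had one of 268 at its start. The tumour suppressor gene p53, around Gr94a, had one of 168, CG13954, around Or45a, one of 89.9, and Mondo, around Gr39a, one of 88.6. In the spans of SLO2, around Gr47a, and CG15312, around Gr9a, the highest signals were 97.6 and 90.8. Members by arm were 27 on 2L, 28 on 2R, 22 on 3L, 29 on 3R, 14 on the X and 0 on 4. On the arms with members, 18.1 to 20.5% of protein-coding genes had a passing summit at a start, so no arm with receptor genes stood out for a low share.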
